A study of Rattus norvegicus with 12 samples.

Results

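Il1rl1 encodes ST2, the receptor of the cytokine interleukin-33 (IL-33), and was measured here in cultures of rat retinal ganglion cells (RGCs), which carry visual signals from the eye to the brain. It was represented by every probe set of the array whose single annotated symbol is Il1rl1, which gave 2 of the 31042 probe sets of the table. The gene was chosen by its log2 MAS5 signal in the endothelin arrays against the untreated arrays, as the largest increase, so its difference from untreated cells is given as a description, with no test. The RGCs came from Sprague-Dawley pups on postnatal days 4 to 6 by panning on Thy-1.1, a surface protein, and grew for 7 days without serum, with BDNF, CNTF and forskolin. The neurotrophic factors were then withdrawn overnight in all groups. The treated groups received an endothelin at 100 nM for 24 h, one each ET-1, ET-2 and ET-3. The control cells, called untreated in one label and vehicle-treated in another, went through the same culture and withdrawal and go by the first name below. There were 3 arrays per group and 4 groups, with biological replicate numbers 1 to 3. Whether a number was a separate preparation of cells is not stated, so p-values measure the spread between these arrays.

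IL-33 is stored in the nucleus and released by damaged cells. It binds ST2, which then recruits the accessory protein Il1rap, and the paired intracellular domains bind the adaptor Myd88 and the Irak kinases, with Traf6, NF-kB and MAP kinases downstream. The same gene also gives a soluble form of ST2 that binds IL-33 without signalling. ST2 is best known on mast cells, type 2 innate lymphoid cells and regulatory T cells, and the rat gene was first isolated from fibroblasts as Fit-1, a gene induced by Fos. The endothelins are short vasoactive peptides closed by disulfide bridges that act on the endothelin A and B receptors; ET-3 differs from ET-1 at more residues than ET-2 does.

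Il1rl1 lies on chromosome 9 in a cluster of interleukin-1 receptor genes. In the GRCr8 build it spans chr9:50157326-50222888. The receptor genes on one side are, in gene order, Il1r2, Il1r1 and Il1rl2, with H3f3al3 between Il1r2 and Il1r1. On the other side are Il18r1 and Il18rap, with Il18r1 starting after a gap of 385 bases. RefSeq lists 11 transcripts of Il1rl1. The start site used in the RefSeq promoter table lies 46312 bases inside the gene, so it is one of several starts. Both promoter windows below run from 250 bases before to 50 bases after that start, on the plus strand. They are shown because Il1rl1 and its neighbour Il1r1 were the measured genes of the cluster with clear signal, and both were higher with the endothelins. The Il1rl1 window is chr9:50203388-50203687 and the Il1r1 window is chr9:50034133-50034432. Capitals mark matches to GGGCGG, the GC box that binds Sp1, to TATTTAA, which resembles the box that places the start of transcription, to the short motif of NF-kB (3 G, any 5 bases, 2 C) or to TGANTCA, the motif that Fos and Jun bind as AP-1.
Il1rl1: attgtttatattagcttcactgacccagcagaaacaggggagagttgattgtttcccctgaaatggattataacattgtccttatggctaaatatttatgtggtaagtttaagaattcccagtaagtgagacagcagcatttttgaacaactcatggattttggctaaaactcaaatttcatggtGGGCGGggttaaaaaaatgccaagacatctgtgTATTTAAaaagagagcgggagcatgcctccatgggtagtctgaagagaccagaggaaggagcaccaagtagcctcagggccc
Il1r1: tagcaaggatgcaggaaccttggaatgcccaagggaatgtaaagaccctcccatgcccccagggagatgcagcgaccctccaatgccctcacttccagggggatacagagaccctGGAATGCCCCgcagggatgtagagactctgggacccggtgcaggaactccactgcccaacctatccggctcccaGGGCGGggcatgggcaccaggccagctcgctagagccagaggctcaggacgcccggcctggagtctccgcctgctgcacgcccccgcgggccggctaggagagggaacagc

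The letters of these motifs were searched on both strands. The Il1rl1 window held GGGCGG from base -65 to -60 and TATTTAA from -32 to -26, counted from the start site as 0, and no match to TGANTCA or the NF-kB motif. The Il1r1 window held GGGCGG from -61 to -56 and the NF-kB motif from -135 to -126 on the minus strand. Of all 33469 rat promoter windows of this length, 33.1% held GGGCGG, 4.58% TATTTAA, 47.3% the NF-kB motif and 7.33% TGANTCA. Such a match is a description of letters and not a binding site.

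The values are MAS5 signals, the Affymetrix summary of the probes in a probe set, on a linear scale scaled to a common trimmed mean. Array medians ran from 136 to 181. The RGC markers Sncg and Rbpms were high in every array, with lowest signals of 15347 and 5226 (the 2 brightest of the list, Sncg and Stmn2, had means of 21683 and 17703). The endothelial marker Pecam1 reached 48.9 at most, whereas Kdr and Esam of the endothelial list had mean signals of 319 and 161. The arrays of replicate 1 stood apart from the others in fibroblast transcripts: the summed signal of 8 fibroblast markers was 48974 in the untreated array and 49793 to 55361 in the endothelin arrays of that number, against 6759 to 10588 in the 8 arrays of replicates 2 and 3. Results are therefore also given by replicate number. In such mixed cultures, more cells of a type and more RNA per cell cannot be told apart.

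The higher-signal Il1rl1 probe set had a mean signal that carried it past the filter on low signal (a mean signal of 147.5), and the other did not. In the untreated arrays the higher-signal probe set read 656, 246 and 199 in replicates 1, 2 and 3. With ET-1 it read 11567, 1929.7 and 1879.8. With ET-2 it read 12271, 916 and 1579.6, and with ET-3 12146, 1117 and 1380.2. Every endothelin array was above every untreated array, the lowest being the ET-2 array of replicate 2. The 3 endothelin arrays of replicate 1 were far above the 6 of replicates 2 and 3, and the untreated array of replicate 1 was also the highest of its group.

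**Figure D1:**
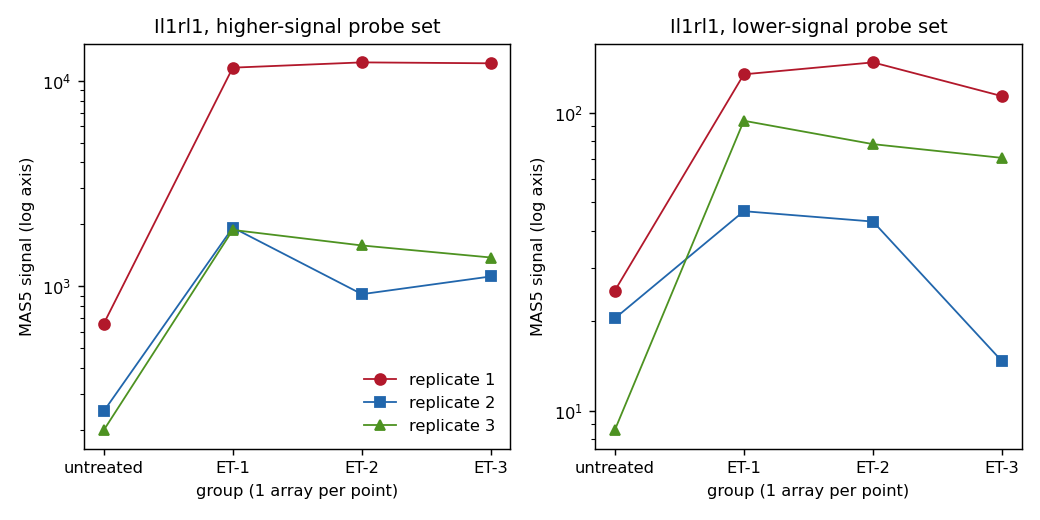
Il1rl1 MAS5 signal on a log axis in each of the 12 arrays, with lines joining the arrays of one replicate number, for the higher-signal (left) and the lower-signal (right) probe set. In the left panel the 3 endothelin arrays of replicate 1 lie between 11567 and 12271 and those of replicates 2 and 3 between 916 and 1929.7.

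Within a replicate number the increase was 17.6-fold, 7.83-fold and 9.44-fold with ET-1 in replicates 1, 2 and 3. With ET-2 it was 18.7-fold, 3.72-fold and 7.93-fold, and with ET-3 18.5-fold, 4.54-fold and 6.93-fold. The mean log2 difference was 3.45 ± 0.61 (SD, n = 3) with ET-1, 3.04 ± 1.17 with ET-2 and 3.06 ± 1.04 with ET-3. Replicate 1 thus had the largest increase with each peptide and replicate 2 the smallest. Averaged over the 3 peptides, the increase was 4.19 on the log2 scale in replicate 1 (18.3-fold), 2.35 in replicate 2 (5.09-fold) and 3.01 in replicate 3 (8.03-fold). Without replicate 1 the fitted log2 increases were 3.10, 2.44 and 2.49 with ET-1, ET-2 and ET-3.

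These values chose the gene. Over all arrays the mean of the 3 endothelins was 3.18 above untreated on the log2 scale for Il1rl1, and 3.04 for Esm1, an endothelial proteoglycan and the next probe set in order. Within single replicate numbers Il1rl1 held rank 3 in replicate 1, rank 7 in replicate 2 and rank 2 in replicate 3 among the 15521 probe sets that passed the filter. Its first place therefore belongs to the average over the numbers.

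The lower-signal probe set read near the bottom of the scale, where MAS5 signals are imprecise. Its untreated arrays were at 25.2, 20.4 and 8.58 in replicates 1, 2 and 3. They were at 134, 46.7 and 93.9 with ET-1, at 147, 43.1 and 78.4 with ET-2, and at 114, 14.6 and 70.5 with ET-3. In 8 of 9 within-number comparisons the endothelin array was higher, by 2.12-fold (ET-2, replicate 2) to 10.95-fold (ET-1, replicate 3), and the exception was ET-3 in replicate 2, at 0.718 of its untreated array. The mean log2 difference was 2.36 ± 1.13 with ET-1, 2.27 ± 1.08 with ET-2 and 1.58 ± 1.83 with ET-3 (SD, n = 3). The tables used here do not say which of the receptor's forms each probe set reads.

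The differences between the endothelins were not used to choose the gene and were tested, in 3 pairs of peptides at the same dose and time. The test was limma with the replicate number as a block, fitted to all 15521 probe sets. Il1rl1 was lower with ET-2 than with ET-1 by a ratio of 0.751, with a 95% interval of 0.474 to 1.19 (log2 difference -0.41 ± 0.31, SE; adjusted p = 0.3415 over the 3 pairs). ET-3 stood to ET-1 at a ratio of 0.764, with an interval of 0.483 to 1.21 (log2 -0.39 ± 0.31; adjusted p = 0.3415 by limma). Both ratios were below 1 in replicates 2 and 3 and above it in replicate 1. ET-3 and ET-2 were at a ratio of 1.02, with an interval of 0.643 to 1.61 (log2 0.026 ± 0.31; adjusted p = 0.9337 by limma). No pair passed the threshold, and the adjusted p over all probe sets was 0.9997, 0.9996 and 0.9989. The intervals still hold differences of up to the size of their bounds, so they do not show that the peptides act alike on this gene.

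None of the 15521 probe sets passed in any pair of endothelins (limma, 0.00% for each pair), although 574, 347 and 583 had an unadjusted p under 0.05 for ET-2 against ET-1, ET-3 against ET-1 and ET-3 against ET-2. The differences with untreated cells, in contrast, gave 268 called probe sets with ET-1 (1.73%), 249 with ET-2 (1.60%) and 410 with ET-3 (2.64%). Counted as genes, the calls were 2.03% of 9425 with ET-1 (1.84% higher, 0.191% lower), 1.87% with ET-2 (1.49% higher, 0.382% lower) and 3% (283 genes) with ET-3 (2.54% higher, 0.467% lower). Averaging the peptides gave 758 (4.88%), or 497 of 9425 genes (5.27%), 379 of them higher (4.02%) and 118 lower (1.25%). A call is a Benjamini-Hochberg adjusted p under 0.05 over all probe sets tested, with 1 probe set per gene where genes are counted. The split depended on the scaling: with each array centred on its median, 28.6% of the probe sets called for the mean endothelin were higher, against 72.4% as deposited, and for ET-2 and ET-3 15.8% and 51.1%, against 79.9% and 80.7%. Every call given here rests on the replicate block: without it limma called 0 probe sets in all of these comparisons, 397 having an unadjusted p under 0.05 for the mean endothelin. The comparisons with untreated cells share the same 3 untreated arrays.

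Among the other receptors of the family, Il1r1, the signalling receptor of interleukin-1 and a neighbour of Il1rl1 in the cluster, was higher with each endothelin. Il1r1 read 1912, 437 and 434 in the untreated arrays of replicates 1, 2 and 3. It read 4012, 781 and 632 with ET-1, 3978.5, 671 and 606 with ET-2, and 3694.5, 762 and 557 with ET-3. All 9 endothelin arrays were above the untreated array of their own number, while the groups overlapped across numbers because replicate 1 was high throughout. The mean endothelin effect on Il1r1 was 0.75 ± 0.088 on the log2 scale (SE, 1.68-fold, adjusted p = 0.0006834 by limma). Each limma SE given here comes from the residuals of all 12 arrays and not from the 3 differences by number. Such an SE does not measure the spread of the difference between numbers. By number the effect on Il1r1 was 1.03, 0.75 and 0.46. It stayed called in all 15 fits that left out an array or a replicate number, between 0.61 and 0.89. Without the replicate block its adjusted p was 1 by limma. Its other 2 probe sets had mean signals of 23.4 and 32.7 and were not tested.

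Il1r1 was the single call among the 3 members of the interleukin-1 family list that passed the filter, of 13 measured and 20 listed, with each single endothelin too. With 3 genes tested, nothing is read from that share against the 5.27% of all genes. The ligands Il1b (0.16 ± 0.11) and Il18 (-0.13 ± 0.097, log2 differences ± SE) did not pass, with adjusted p of 0.4329 and 0.4687 by limma. Il1rl2, the receptor of interleukin-36 that lies beside Il1rl1, was below the filter. Its untreated arrays read 26.2, 60.8 and 55.1 in replicates 1, 2 and 3, and the endothelin arrays ran from 66.8 through a median of 104 to 154, above all untreated arrays. When all 31042 probe sets were tested, Il1rl2 passed at 1.22 ± 0.28 on the log2 scale (adjusted p = 0.0473 by limma). The decoy receptor Il1r2, the antagonist Il1rn, the inhibitor Il18bp, the brake receptor Sigirr, Il1a, Il36b and Il36rn were below the filter too, and none of them passed in that wider test. Il18r1, Il18rap, Il1rapl1, Il1rapl2, Il1f10, Il36a and Il36g matched no single-symbol probe set and were not analysed here.

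**Figure D2:**
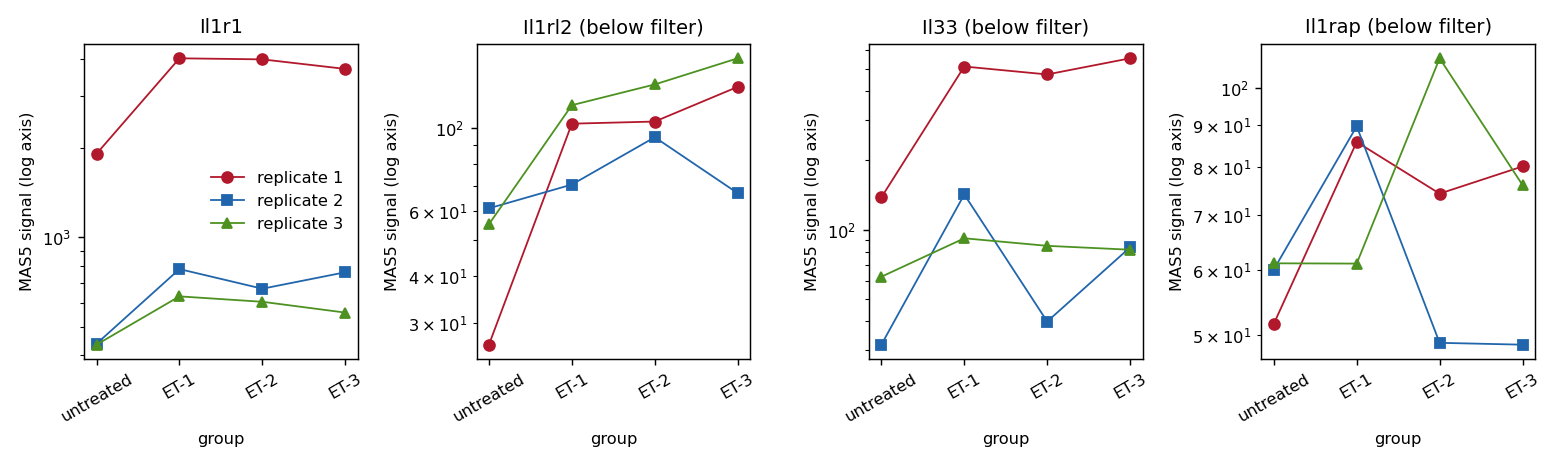
MAS5 signal on log axes for the receptors Il1r1 and Il1rl2, the ligand Il33 and the accessory chain Il1rap in the 12 arrays, with lines joining the arrays of one replicate number. Il1r1 and Il1rl2 lie above untreated in each number, from 1912 to 4012 with ET-1 for Il1r1 in replicate 1, whereas Il1rap stays between 48.6 and 109.

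The ligand and the accessory chain of ST2 had low signal. Il33 read 138, 31.7 and 62.5 in the untreated arrays of replicates 1, 2 and 3. It read 511, 142 and 91.8 with ET-1, 472, 39.9 and 85.1 with ET-2, and 555, 83.9 and 81.9 with ET-3. Each endothelin array was above the untreated array of its number, and the groups overlapped. Averaged over the peptides, the log2 difference was 1.89, 1.30 and 0.46 in replicates 1, 2 and 3. Il33 was below the filter, and in the test of all 31042 probe sets it was 1.22 ± 0.29 higher on the log2 scale, with an adjusted p of 0.05268 by limma, above the threshold. Il1rap, without which ST2 does not signal, ran from 51.5 to 61.1 in the untreated arrays and from 48.6 to 109 in the endothelin arrays, 6 of 9 being above their untreated array (0.34 ± 0.27 in the unfiltered test, adjusted p = 0.6196 by limma). A second probe set of each gene also lay below the filter.

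Most listed genes of the intracellular chain below ST2 passed the filter, and none of these gave a call. Of 22 listed genes of IL-33 receptor signalling, 21 were measured and 17 passed the filter; 0 of the 17 passed the test for the mean endothelin (limma; 4 had an unadjusted p under 0.05, and 0 in the fit without the replicate block). No member passed with a single endothelin either, with 4, 0 and 2 at an unadjusted p under 0.05 for ET-1, ET-2 and ET-3. A count of 0 among 17 genes lies near the background of 5.27%. Their median log2 difference was 0.020, against -0.018 over all 9425 genes, and 10 of the 17 differences were above 0. The adaptor Myd88 was at 0.18 ± 0.16 and turned to -0.072 without replicate 1. The kinases Irak1 and Irak2 were at 0.042 and -0.034 and Irak3, which restrains the pathway, at 0.20. The kinase Irak4 and the brake receptor Sigirr were below the filter. Traf6, the ubiquitin ligase that follows them, was at -0.0078, and Tollip, an inhibitor, at -0.053.

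Further down, the kinase Map3k7 (TAK1) was at -0.00098 and its partners Tab1, Tab2 and Tab3 at -0.086, 0.062 and -0.12. The IkB kinases Chuk and Ikbkb were at 0.020 and 0.16, and the inhibitor Nfkbia at 0.016. The NF-kB subunits had the largest differences among the 17 tested members, Rela at 0.33 ± 0.14 and Nfkb1 at 0.32 ± 0.095 (adjusted p = 0.1759 and 0.07024 by limma). Nfkb1 passed without replicate 3 (0.49, adjusted p = 0.02005 by limma) and without the untreated array of replicate 3 (0.49, adjusted p = 0.005795), which are the same comparison of replicates 1 and 2 for this difference. Without replicate 3 Il33 passed the filter and the test too. The MAP kinases Mapk14 and Mapk8 were at 0.060 and -0.14, and Mapk8 passed as lower when each array was centred on its median (-0.20, adjusted p = 0.02799 by limma).

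**Figure D3:**
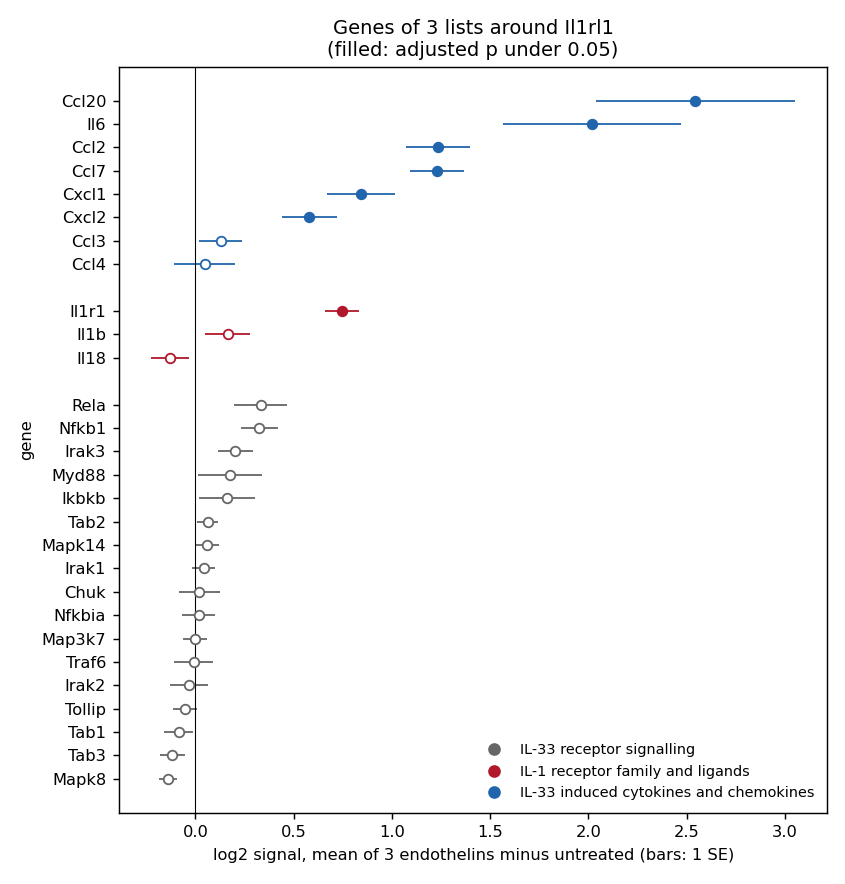
Log2 difference between the mean of the 3 endothelins and untreated, with bars of 1 SE, for the tested genes of IL-33 receptor signalling, the interleukin-1 family and the cytokines induced by IL-33; filled points passed limma's adjusted p of 0.05. The 17 signalling genes lie between -0.14 and 0.33 and none is filled, while Il1r1 and 6 of 8 cytokine genes are.

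The next list held cytokines and chemokines that IL-33 is known to induce in cells bearing ST2. It was drawn up with results of some members known, so its count is not independent evidence of a direction. Of 19 listed, 18 were measured, 8 passed the filter and 6 rose with the mean endothelin, against 4.02% of all genes (limma; none fell). With ET-1, ET-2 and ET-3 alone 2, 2 and 5 of the 8 rose. The median log2 difference of the 8 was 1.04, against -0.018 over all genes, and the 10 members below the filter, which went both ways, are not part of it. The filter used the mean over all arrays, endothelin arrays included. Ccl20 had a mean signal of 87.0 in the untreated arrays, under the filter. With ET-1, ET-2 and ET-3 its means were 517, 393 and 645. The count of 6 and the median of 1.04 thus include a member that its untreated signal alone would not have admitted. Without replicate 1, 7 members passed the filter. The calls were Ccl20 (2.55 ± 0.51), Il6 (2.02 ± 0.46), the monocyte chemokines Ccl2 (1.24 ± 0.16) and Ccl7 (1.23 ± 0.14), and the neutrophil chemokines Cxcl1 (0.84 ± 0.17) and Cxcl2 (0.58 ± 0.14, SE). Ccl3 (0.13) and Ccl4 (0.046) did not pass. The type 2 cytokines Il4, Il5 and Il13, the cytokines that most mark ST2 signalling in lymphoid cells, had mean signals of 4.97, 8.59 and 9.53 and were below the filter, as were Il10, Csf2, Areg, Tnf, Ccl5, Ccl17 and Cxcl10.

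Il6 and Ccl20 followed Il1rl1 in being highest in the endothelin arrays of replicate 1. Il6 read 184, 106 and 220.0 in the untreated arrays of replicates 1, 2 and 3, and the endothelin arrays read 3102 to 3573 in replicate 1 against 197 to 368 in the other numbers. Ccl20 read 257, 29.6 and 86.6 untreated, and with endothelins 4467 to 5823 in replicate 1, 131 to 339 in replicate 2 and 81.3 to 136 in replicate 3. The mean endothelin difference of Il6 was 4.19, 1.31 and 0.56 by number, and that of Ccl20 was 4.36, 2.98 and 0.29. The 6 calls became 3 without replicate 1 or its untreated array (Il6, Ccl2 and Ccl7), 3 without the untreated array of replicate 2 (the same genes), and 2 without replicate 2 (Ccl2 and Ccl7). Ccl2 and Ccl7 kept their call in every fit that left out an array or a number, and lost it without the replicate block, as all 6 did. Without the intensity trend Ccl2 and Ccl7 were the 2 calls left, with Il6, Ccl20, Cxcl1 and Cxcl2 at adjusted p of 0.08156, 0.05473, 0.06304 and 0.09529 by limma. Cxcl2 also missed the threshold in 9 of the 15 fits that left out an array or number.

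Of the transcription factors of the AP-1 and serum response list, 12 of 18 measured genes passed the filter and 3 rose, with none falling (limma, against 4.02% of all genes). With ET-1, ET-2 and ET-3 alone the count was 2, 0 and 1. These were the Fos relative Fosl1 (0.97 ± 0.24), Egr1 (0.73 ± 0.14) and Ets1 (0.50 ± 0.11, log2 differences ± SE). Fos itself, for which the rat receptor gene was named, was at -0.013 ± 0.071. Egr2 was at 0.76 ± 0.20 and just missed the threshold (adjusted p = 0.0514 by limma). The untreated mean signals of Egr2 and Junb were 138.2 and 137.95, under the filter of 147.5. Both were among the 12 tested only through their endothelin arrays, so the near miss of Egr2 is a description. Fosl1 read 118, 144 and 392 in the untreated arrays of replicates 1, 2 and 3, and with endothelins 462 to 476, 223 to 300 and 397 to 457. Its difference was 1.99, 0.82 and 0.11 by number, and it missed the threshold in 11 of the 15 leave-out fits and without the intensity trend (adjusted p = 0.09144 by limma). The 3 calls fell to 0 without replicate 1 or without replicate 2, or without the untreated array of either number. Gata1, Gata2 and Gata3, which drive the gene in mast and lymphoid cells, were below the filter, with mean signals of 33.8, 40.9 and 32.9.

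Markers of other cells that can carry ST2 were examined beside these values. The fibroblast list moved with the replicate number: its summed signal was at least 48974 in replicate 1, where Il1rl1 was highest, and at most 10588 in the other numbers. With the endothelins it was 49793 to 55361 against 48974 untreated in replicate 1, 7603 to 10055 against 10588 in replicate 2, and 6759 to 8266 against 7024 in replicate 3. Of its 8 markers 6 were tested, and 1 fell with the mean endothelin (against 1.25% of all genes), Col3a1 (-0.27 ± 0.054, adjusted p = 0.01442 by limma; up to 0.09107 in the fits that left out an array or number, 4 of 15 being above 0.05, and 0.06613 without the intensity trend). Mfap5, below the filter on its mean, read 493 untreated and 1245.5 to 1359 with endothelins in replicate 1. In replicate 2 it read 76.3 untreated and 39.2 to 74.1 with endothelins. In replicate 3 it read 4.56 untreated and 19.8 to 48.9 with endothelins, near the bottom of the scale, where signals are imprecise. Mfap5 was higher in 6 of 9 within-number comparisons. Fbln1, also below the filter, read 719 untreated and 359 to 538 with endothelins in replicate 1, and was higher in 3 of 9 comparisons. The 2 brightest markers of the list, Col1a2 and Col3a1, had mean signals of 3910.5 and 3236.

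Pericyte and smooth muscle markers differed among themselves. Their summed signal, most of it from Tagln (mean 5778.5), ran from 4398 to 7009 over the untreated arrays and from 7779.7 to 11172 over the endothelin arrays, which did not overlap, and 4 of the 6 tested markers rose (against 4.02% of all genes): Pdgfrb (1.02 ± 0.19), Tagln (0.72 ± 0.092), Cnn1 (0.63 ± 0.079) and Acta2 (0.55 ± 0.062). Pdgfrb missed the threshold without replicate 1 (0.71, adjusted p = 0.1713 by limma) and without its untreated array (adjusted p = 0.07795). Myh11 (0.14) and Abcc9 (-0.22, lower in 7 of 9 within-number comparisons) did not pass. Of the 10 markers 4 were below the filter, among them the pericyte genes Rgs5, Cspg4 and Kcnj8, at mean signals of 28.2, 52.4 and 26.4. At this low signal Cspg4 was higher in 9 of 9 within-number comparisons. Cspg4 read 26.0 to 34.7 untreated and 35.7 to 131 with endothelins, without overlap. Rgs5 and Des were higher in 6 of 9 comparisons each and Kcnj8 in 3 of 9. The part of fibroblasts, pericytes and smooth muscle cells in the Il1rl1 values was not tested.

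**Figure D4:**
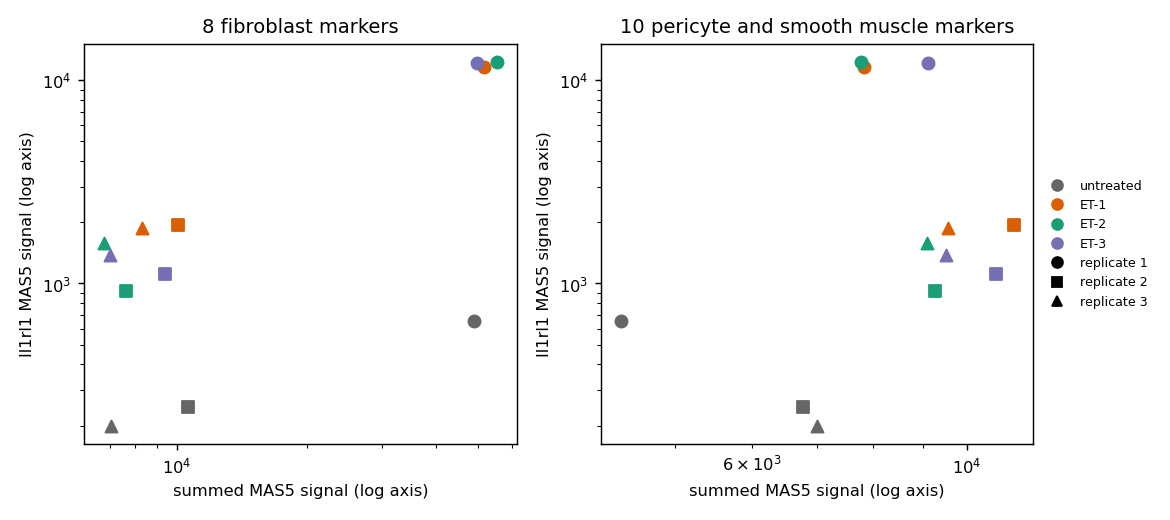
Il1rl1 MAS5 signal of the higher-signal probe set against the summed signal of 8 fibroblast markers (left) and 10 pericyte and smooth muscle markers (right), one point per array on log axes, coloured by group and shaped by replicate number. The fibroblast sum separates replicate 1 (48974 to 55361) from the other numbers (up to 10588), and the pericyte and smooth muscle sum separates the untreated arrays (up to 7009) from the endothelin arrays.

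The summed signal of the 10 astrocyte and Müller glia markers was 9354.5 to 14328 untreated and 12949 to 26896 with endothelins. Most of that sum came from Vim and Gja1, with mean signals of 10102 and 2695.5. Of the 4 tested, Gja1 (1.03 ± 0.10) and Vim (0.67 ± 0.048) rose (against 4.02% of all genes), while Glul (-0.020) and Slc1a3 (0.076) did not pass, and the defining genes Gfap and Aqp4 had mean signals of 145 and 115, under the filter. Gja1, like the fibroblast list, was highest in replicate 1. It read 4556, 617 and 1402 untreated in replicates 1, 2 and 3. With endothelins it read 10311 to 11276 in replicate 1 and 1106 to 2505 in the other numbers. The RGC list gave 1 call of 14, a share near the 5.27% of all genes. It was Eomes, a transcription factor of some RGCs, which fell by 0.32 (SE 0.070, adjusted p = 0.02242 by limma; 0.1519 without replicate 1 and 0.138 without replicate 2, 0.07387 without the intensity trend, and a second probe set at -0.30 did not pass). Summed RGC signal was 94537 to 136170 untreated and 94691 to 148570 with endothelins, lowest in the arrays of replicate 1.

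The immune cells best known for ST2 were not seen above low signal. Of 12 listed markers of mast cells and type 2 lymphoid cells, 10 were measured and 9 lay below the filter. The mast cell proteases Cma1 and Tpsab1 had mean signals of 3.18 and 4.17, the IgE receptor chains Fcer1a and Ms4a2 22.5 and 14.7, and Kit 16.9. The brightest of those below the filter was Il7r, at 102. The exception, Rora, is also a gene of neurons, and it was at -0.14 ± 0.12. Microglia and macrophage markers were present, with Lyz2 and Aif1 at mean signals of 1840.6 and 713. None of the 7 tested passed, a count near the 5.27% of all genes (limma; 0 at an unadjusted p under 0.05). Their sum did not separate the groups, at 3186 to 5794.5 untreated and 2803 to 7856 with endothelins. Among 9 endothelial markers 7 were below the filter. Of the 2 tested, 1 fell (against 1.25% of all genes), too few to read a share from. It was Kdr, by 0.58 (SE 0.14, adjusted p = 0.03043 by limma; above 0.05 in 7 of 15 fits that left out an array or number, up to 0.1798, and 0.0594 without the intensity trend), and Esam did not pass. Esam had an untreated mean signal of 127, under the filter, and was tested only through its endothelin arrays. None of 4 tested photoreceptor and amacrine markers passed either, again near the 5.27% of all genes. Pax6 and Tfap2b were the brightest, at 6855 and 427.

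The genes whose pattern over the 12 arrays was most like that of Il1rl1 were found by Pearson's r after subtracting the mean of each replicate number from the log2 signals, among 9424 other genes. The 8 highest were Ccn2, a matricellular protein (0.981), the calponin Cnn2 (0.979), Esm1 (0.978), the lectin Lgals1 (0.978), Lhfpl6 (0.977), the intermediate filament Vim (0.974), the integrin chain Itgb1 (0.973) and the laminin chain Lamb1 (0.972). The values share the same 12 arrays and their 3 untreated controls, and the r of the 100th gene in order was still 0.925. The 4 lowest were Slc25a36 (-0.971), Rcan2 (-0.970), Nsd2 (-0.967) and the axonal scaffold Ank3 (-0.958).

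Similar shape did not mean similar size. The mean endothelin difference of the 8 genes ran from 0.31 for Lhfpl6 to 3.04 for Esm1, and after Esm1 the next was Ccn2 at 0.83. As the choice by likeness to Il1rl1 favours, each of the 8 had its largest difference in replicate 1. By number it was 3.83, 2.99 and 2.31 for Esm1 and 1.12, 0.66 and 0.70 for Ccn2. The order of the genes was not stable: 1 of the 8 was again among the first 8 without replicate 1, 4 without replicate 2 and 0 without replicate 3, although the r of all 8 stayed at or above 0.951 in these 8-array versions. Without subtracting the replicate means, Esm1 and Vim stayed at 0.973 and 0.948, while Ccn2 went to 0.515.

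**Figure D5:**
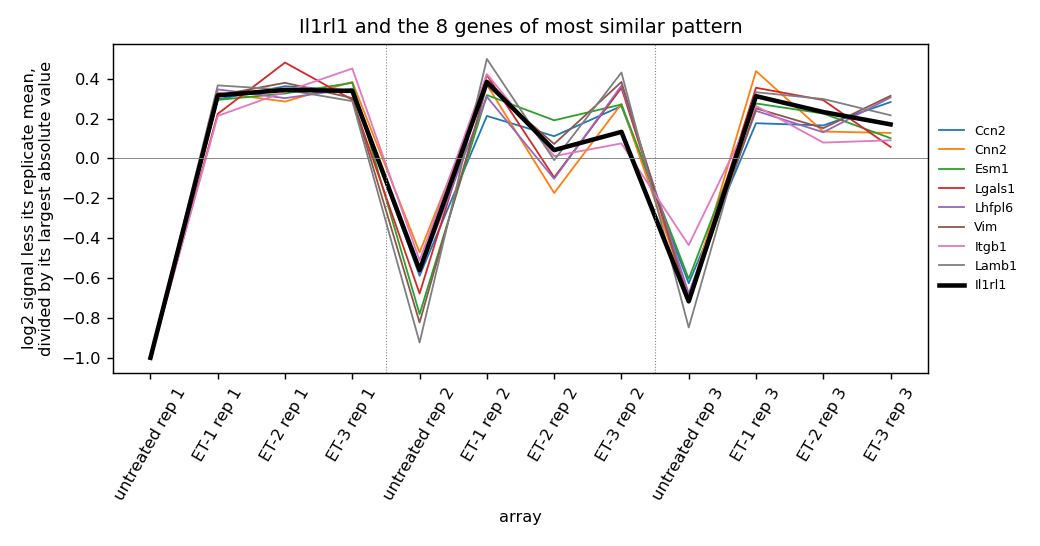
Log2 signal less the mean of its replicate number, divided by the gene's largest absolute value, for Il1rl1 (thick black) and the 8 genes of highest Pearson r (0.972 to 0.981) over the 12 arrays, ordered by replicate number. All lines are lowest in the untreated array of each number and lowest of all in that of replicate 1, which the choice by r favours.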

How the data were processed

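Expression was measured on Affymetrix rat arrays in 12 samples, 3 per group. The deposited intensity of each probe set is a MAS5 signal per the submitters' processing notes, with version and settings not given in the sources used here. Its mean after trimming 2% at each end was 496.7 to 498.3 on the 12 arrays, so arrays appear to have been scaled together. Detection calls were not used. Of 31042 probe sets, 20826 had 1 symbol in the platform annotation, 436 several and 9780 none. Signals were taken as log2 with no pseudocount. The 15521 probe sets with a mean log2 signal at or above the median were tested with limma 3.58.1 in R 4.3.3 (group means, replicate block, contrasts, eBayes with an intensity trend), which had 6 residual degrees of freedom. Tests were two-sided, with Benjamini-Hochberg adjustment. A gene was represented by its probe set of highest mean log2 signal.

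The block was used because the gene was to be compared by replicate number. The labels do not say what a number stands for, and the pairing rests on the values: for arrays sharing a number, deviations from the group mean had an r of 0.684 to 0.912 (18 pairs), against -0.706 to -0.056 between numbers in different groups (36 pairs). The deviations within a group cancel out, so a positive r within numbers forces r between numbers to be negative on average. The second range thus adds no separate evidence. The fit without the block was an alternative, with 8 degrees of freedom. Others were no filter, 16 added before log2, median centring, quantile normalization, no intensity trend, only the groups compared, and leaving out arrays or numbers. Likeness alternatives and the ranks by number were chosen after seeing the data. Named genes were the Il1rl1 probe sets, the 8 highest and 4 lowest in likeness, called list members, the members of the first 2 lists, and the 2 brightest markers per list; other markers were named after their values were seen. The 5 pathway and 8 marker lists held 173 entries, of which 154 matched, and the endothelin receptors were not analysed here. The gene and the lists were chosen with earlier results of these data known. The fit was tested on simulated data. Promoters came from RefSeq (GRCr8).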

Additional observations from a re-analysis of the deposited data

How the results depend on the processing

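The replicate block decided the calls. Without it limma called 0 probe sets with ET-1, ET-2, ET-3 and their mean and 0 genes of the interleukin-1 family list, against 268, 249, 410, 758 and 1, with 237, 223, 297 and 397 probe sets at an unadjusted p under 0.05 and a lowest adjusted p of 0.1279. With no filter the calls were 135 (ET-2) and 273 (ET-3), and the interleukin-1 family list had 2 (Il1r1 and Il1rl2). With median centring they were 1218 (ET-2) and 1492 (mean), with 28.6% of the latter higher against 72.4%, and 1 of the IL-33 signalling genes (Mapk8). That centring took the median of all tested probe sets for ET-2 from -0.023 to -0.12. Without the intensity trend they were 123, 71, 170 and 438, and with only the groups compared 78, 56 and 56 for the single peptides. Leaving out an array or number gave 23 to 577 (ET-1), 28 to 406 (ET-2), 43 to 688 (ET-3) and 214 to 1029 (mean), with the lowest without replicate 2 (for ET-2 without its replicate 1 array) and the highest without the untreated array of replicate 3; fewer arrays were fitted, and the cause was otherwise not tested. The same runs gave 0 to 2 calls in the IL-33 signalling list and 1 to 2 in the interleukin-1 family list.

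For Il1rl1 the description held: in all 18 alternatives each, the log2 increase was 2.94 to 3.87 with ET-1, 2.44 to 3.61 with ET-2 and 2.49 to 3.502 with ET-3. ET-2 minus ET-1 stayed between -0.70 and -0.070 and ET-3 minus ET-1 between -0.65 and -0.19 in 22 alternatives, none past the threshold. ET-3 minus ET-2 changed sign, from -0.32 to 0.31 when an array or number was left out. Signalling genes near 0 changed sign too: with median centring Irak1 (-0.015), Chuk (-0.036) and Nfkbia (-0.041), with quantile normalization Map3k7 (0.015), and without single arrays or numbers Myd88 (-0.072 to 0.47), Irak1 (-0.031 to 0.082), Irak2 (-0.085 to 0.050), Traf6 (-0.079 to 0.13), Tollip (-0.087 to 0.0031), Map3k7 (-0.077 to 0.059), Chuk (-0.17 to 0.20), Ikbkb (-0.0023 to 0.26), Nfkbia (-0.034 to 0.052) and Fos (-0.11 to 0.046). Precision was limited by 3 arrays per group, and probe sets with a mean signal under 147.5, such as those of Il33 and Il1rap, were tested only in the fit with no filter.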

Other observations

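Of the endothelin system, 3 of 9 listed genes were tested and none passed in the values as deposited. With 3 genes tested, nothing is read from that count against the 5.27% of all genes. Ece1 (0.17 ± 0.069, log2 difference ± SE), Ece2 (-0.065) and Ecel1 (-0.13) were tested and did not pass for the mean endothelin (limma; 2 of the 3 had an unadjusted p under 0.05). With each array centred on its median, Ecel1 passed as the 1 call of this list, in a setting where 426 of all 15521 probe sets were called higher and 1066 lower. Edn1, the gene of ET-1, was below the filter. It read 59.4, 65.2 and 108 in the untreated arrays of replicates 1, 2 and 3, and 96.1 to 127 in the endothelin arrays, each above the untreated array of its number. In the test of all probe sets Edn1 was at 0.60 ± 0.18 with an adjusted p of 0.1254 by limma.

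Beyond the receptor genes, the protein-coding genes that follow Il18rap along chromosome 9 are Slc9a4, Slc9a2, Mfsd9 and Tmem182. Mfsd9 was tested and was at -0.22 ± 0.13 for the mean endothelin (adjusted p = 0.3629 by limma). Slc9a4, Slc9a2 and Tmem182 lay below the filter, with mean signals of 30.9, 71.2 and 10.8, and their endothelin arrays overlapped the untreated ones.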
